A study of Equus caballus with 4 samples.

Results

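Expression of 10 genes grouped as interferon-induced antiviral effectors was followed in equine satellite cells, the stem cells of muscle that fuse into new fibers. The genes were *ifit1*, *ifit2*, *ifit3*, *ifit5*, *mx1*, *mx2*, *rsad2*, *ifi44*, *ifi44l* and *plac8b*. A probe was taken as a member when its symbol in the array files equaled 1 of these names, which gave 8 probes of 6 genes among 13350 genes named by a symbol. A further 2 probes belonged to *plac8b* by their gene number. *Ifit1* and *ifit5* had 1 probe each by the description in the files. The current horse gene table holds no *ifit1* by that name, so the name of the *ifit1* probe is uncertain. No probe of *ifit2* was found, and it is not analysed here. In all, 12 probes of 9 genes are described. The genes were chosen for their low ratio in GO-treated cells, so their ratios are given as a description.

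Primary cultures from *semitendinosus* muscle of colts aged 6 months were differentiated and analyzed on day 3 of differentiation. GO-treated cells received 125 nM gamma-oryzanol (GO), a mixture of plant sterol ferulates from rice bran, for the last 24 h. Control cells received the vehicle, DMSO at 0.04 µl/ml, which the GO-treated cells received too. On each of 4 arrays, cRNA of GO-treated cells (Cy5) was hybridized together with cRNA of control cells (Cy3). The methods state that 1 cell line was chosen for its viability and fusion, while RNA came from separate isolations, so it is not settled how many animals the 4 arrays stand for. The labels call them biological replicates. All spreads below are those between the 4 arrays, and all 4 arrays lay on 1 slide. The dyes were not swapped, so a dye effect on a probe and the effect of GO cannot be told apart. The 12 probes were also read from bulk RNA, in which fewer cells that express a gene and less RNA per cell cannot be told apart.

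Interferons are signaling proteins released when a cell senses viral nucleic acid. They bind receptors whose Janus kinases activate the STAT factors, and these, with IRF9, switch on many genes that carry an interferon response element. The IFIT proteins bind viral RNA and hinder its translation, the MX proteins are dynamin-like GTPases that trap viral components, and viperin, the product of *rsad2*, makes a nucleotide that ends viral RNA chains. IFI44 and IFI44L are cytoplasmic proteins of the same response. The function of *plac8b*, a relative of the placenta-specific gene *plac8*, is less well known, and it is called an effector here by the grouping alone. Several of these genes keep a low expression in cells without infection.

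Signals of the probes are processed intensities of 1 channel, in arbitrary units, and the log2 ratio is that of the GO signal over the control signal of the same spot, except at part of the spots where the software put a substitute for a signal too near background. Of all spots, 14.6% to 23.4% on an array had such a substitute and a ratio listed at exactly 0, although their signals differ. A negative ratio means less signal after GO. A probe counts as well above background on an array where the scanner software marked it so. Levels of different probes are not compared, since probes differ in how strongly they bind. Of all probes, the control channel of an array had 63.5% to 68.9% well above background and the GO channel 57.4% to 67.0%, and no spot was saturated. Array 4 had the lowest share in both channels.

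The probes of the IFIT genes are shown first because the genes form 1 family, in which related sequences could share signal. Each probe has 60 bases and lies on the minus strand of chromosome 1 in EquCab1, the build of the files. Capitals mark the longest run that a probe shares with another IFIT probe.
*ifit1*, chr1:38243065-38243124: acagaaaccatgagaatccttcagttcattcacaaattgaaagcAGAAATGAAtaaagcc
*ifit3*, chr1:38311932-38311991: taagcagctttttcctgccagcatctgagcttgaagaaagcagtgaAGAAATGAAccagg
*ifit5*, chr1:38225382-38225441: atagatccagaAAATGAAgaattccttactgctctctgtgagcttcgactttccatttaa
The longest shared run was 9 bases between *ifit1* and *ifit3* and 7 bases between *ifit5* and *ifit3*. Aligned without gaps, *ifit1* and *ifit3* matched at no more than 24 of 60 bases. The *ifit5* and *ifit3* probes lay 86.6 kb apart. The files do not say whether a probe lies in coding sequence or in an untranslated part.

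*Ifit3*, whose protein stabilizes the complex in which IFIT1 binds viral RNA, had control signals of 188, 60.2, 393 and 21.9 on arrays 1 to 4, all well above background. Its GO signals were 18.9, 5.77, 29.9 and 7.10, and only that of array 3 was well above background. The log2 ratios were -3.32, -3.38, -3.71 and -1.63, a mean of -3.01 ± 0.94 (SD, n = 4), or 8.05-fold lower. With normexp background correction, which adds 50 to each signal, the mean was -1.06. The GO signal was the lower of the pair on every array. Between arrays the signals overlapped, as the GO signal of array 3 was above the control signal of array 4.

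*Ifit5*, which binds viral RNA alone without the other family members, was well above background in both channels on all 4 arrays. Its control signals were 385, 199.9, 409 and 140.2, against GO signals of 218, 151, 144 and 100.1. The log2 ratios of -0.82, -0.41, -1.51 and -0.49 gave a mean of -0.81 ± 0.50 (SD, n = 4), or 1.75-fold lower. This was the smallest fall among the probes that met the filter on dim probes, and the GO signals of arrays 1 to 3 were above the control signal of array 4.

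The *ifit1* probe was dim. Its control signals were 44.7, 10.5, 62.3 and 8.85, of which those of arrays 1 and 3 were well above background, and its GO signals were 6.70, 3.53, 6.33 and 6.93, not well above background on any array. The log2 ratios were -2.74, -1.57, -3.30 and -0.35, a mean of -1.99 ± 1.31 (SD, n = 4). Since no GO signal could be measured above background, its level was taken after normexp correction and normalization, not from the signals above. On each array it was the lowest signal marked well above background, or its own where that was higher. By this measure *ifit1* was 1.19-fold lower in GO-treated cells. The control signals of arrays 2 and 4 were themselves not well above background, so this is not a firm lower limit.

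**Figure D1:**
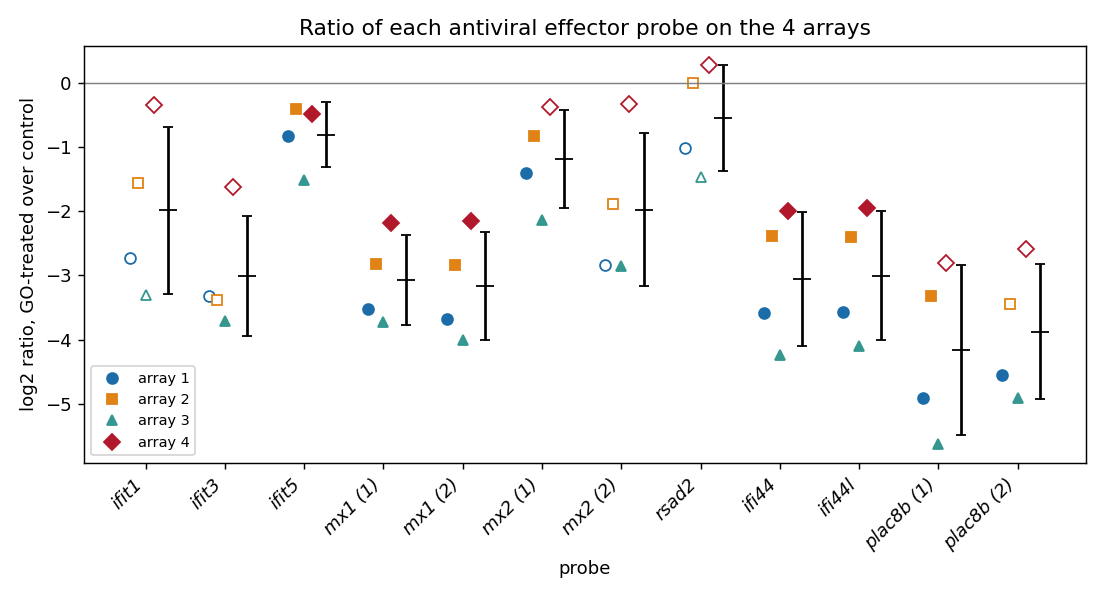
Log2 ratio, GO-treated cells over control (vertical axis), for the 12 probes on the 4 arrays, 1 symbol per array. Filled symbols mark a GO signal well above background and open symbols one that was not, and the black bar is the mean with its SD. In 11 of 12 probes all 4 ratios lay below 0, and *rsad2* is the exception.

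*Mx1* and *mx2* lie 43.9 kb apart on chromosome 26, and each had 2 probes. The *mx1* probes, at chr26:4781674-4781733 and chr26:4781634-4781693, overlapped by 20 bases and therefore measure nearly the same stretch. The *mx2* probes stood next to each other with no shared base, and are shown because they differed in ratio. Capitals mark the longest run shared with an *mx1* probe, 5 and 6 bases.
*mx2* probe 1, chr26:4825513-4825572, minus strand: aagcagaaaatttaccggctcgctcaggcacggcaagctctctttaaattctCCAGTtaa
*mx2* probe 2, chr26:4825576-4825635, minus strand: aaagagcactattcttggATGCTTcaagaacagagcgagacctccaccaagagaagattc

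*Mx1* was bright in both channels on every array. The control signals of its first probe were 17316, 3447, 31465 and 2193, and the GO signals were 1508, 487, 2372 and 481. Control cells thus differed more than 10-fold between arrays 3 and 4, while the GO signal was far below the control signal of the same spot on each array. The GO signal of array 3 was above the control signal of array 4, and with each channel scaled the groups just failed to overlap. The log2 ratios were -3.52, -2.82, -3.73 and -2.19 for the first probe, with a mean of -3.07 ± 0.70 (SD, n = 4), or 8.37-fold lower. The second probe had -3.69, -2.83, -4.00 and -2.15, with a mean of -3.17 ± 0.84, or 9.00-fold lower. The overlapping probes had the same order of arrays.

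*Mx2*, a relative that acts on other viruses, was near background in GO-treated cells. Its first probe had control signals of 69.3, 34.4, 140.6 and 26.2 and GO signals of 26.1, 19.4, 32.0 and 20.3, and 3 of its 4 GO signals were well above background. The log2 ratios of that probe were -1.41, -0.83, -2.14 and -0.37, a mean of -1.19 ± 0.76 (SD, n = 4), or 2.28-fold lower, and with normexp the mean was -0.42. The second probe had log2 ratios of -2.83, -1.88, -2.85 and -0.32, a mean of -1.97 ± 1.19 (SD, n = 4), or 3.93-fold lower, and its GO signal was well above background on array 3 alone. Both probes were lowest in ratio on array 3 and nearest to 0 on array 4. The second probe had the lower ratio on arrays 1 to 3, and on array 4 it stood slightly above the first.

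*Rsad2* had 1 probe, shown because its values did not follow those of the other genes. No capitals are used, since no other member is related to it.
*rsad2*, chr15:82669576-82669635, minus strand: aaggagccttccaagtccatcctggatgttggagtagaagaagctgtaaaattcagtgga
Its control signals were 7.05, 3.05, 11.4 and 24.3 and its GO signals 3.49, 3.27, 4.12 and 29.6. Only the control signal of array 4 was well above background. The log2 ratios were -1.01, 0.00, -1.47 and 0.28, a mean of -0.55 ± 0.83 (SD, n = 4), where the value of array 2 was listed at 0 because of a substitute signal. On array 4, the only one with a control signal well above background, the GO signal was the higher. No fold is given, and a change was not detectable at this signal.

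*Ifi44* and *ifi44l* lie 22.8 kb apart on chromosome 5, at chr5:57398964-57399023 and chr5:57421746-57421805 for their probes. The *ifi44* probe is shown as a probe bright in both channels, with the run of 6 bases that it shares with the *ifi44l* probe in capitals.
*ifi44*, minus strand: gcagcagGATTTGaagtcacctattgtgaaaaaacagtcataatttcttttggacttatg
*Ifi44* had control signals of 7271, 1740, 10485 and 1796 and GO signals of 607, 334, 553 and 449, all well above background. Every GO signal was below every control signal. The log2 ratios were -3.58, -2.38, -4.25 and -2.0, a mean of -3.05 ± 1.04 (SD, n = 4), or 8.30-fold lower. *Ifi44l* had control signals of 2581, 815, 4282 and 694 and GO signals of 218, 155, 251 and 179.5. The groups did not overlap here either. Its log2 ratios of -3.57, -2.40, -4.09 and -1.95 gave a mean of -3.00 ± 1.00 (SD, n = 4), or 8.01-fold lower. The ratios of the 2 neighboring genes differed most on array 3, by 0.15 on the log2 scale.

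*Plac8b* had 2 probes on chromosome 3. These, at chr3:45344203-45344262 and chr3:45344173-45344232, overlapped by 30 bases. The first had control signals of 1348, 226, 4090 and 183 and GO signals of 45, 22.6, 83.0 and 26.2, of which that of array 4 was not well above background. Every GO signal was below every control signal. The log2 ratios were -4.90, -3.33, -5.62 and -2.80, a mean of -4.16 ± 1.32 (SD, n = 4), or 17.9-fold lower. With normexp the mean of this probe was -2.64, above the -2.96 of *mx1*, so the order of the members by ratio depended on the background correction. The second probe had -4.55, -3.45, -4.90 and -2.59, a mean of -3.88 ± 1.06, or 14.7-fold lower, and its GO signal was well above background on arrays 1 and 3.

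**Figure D2:**
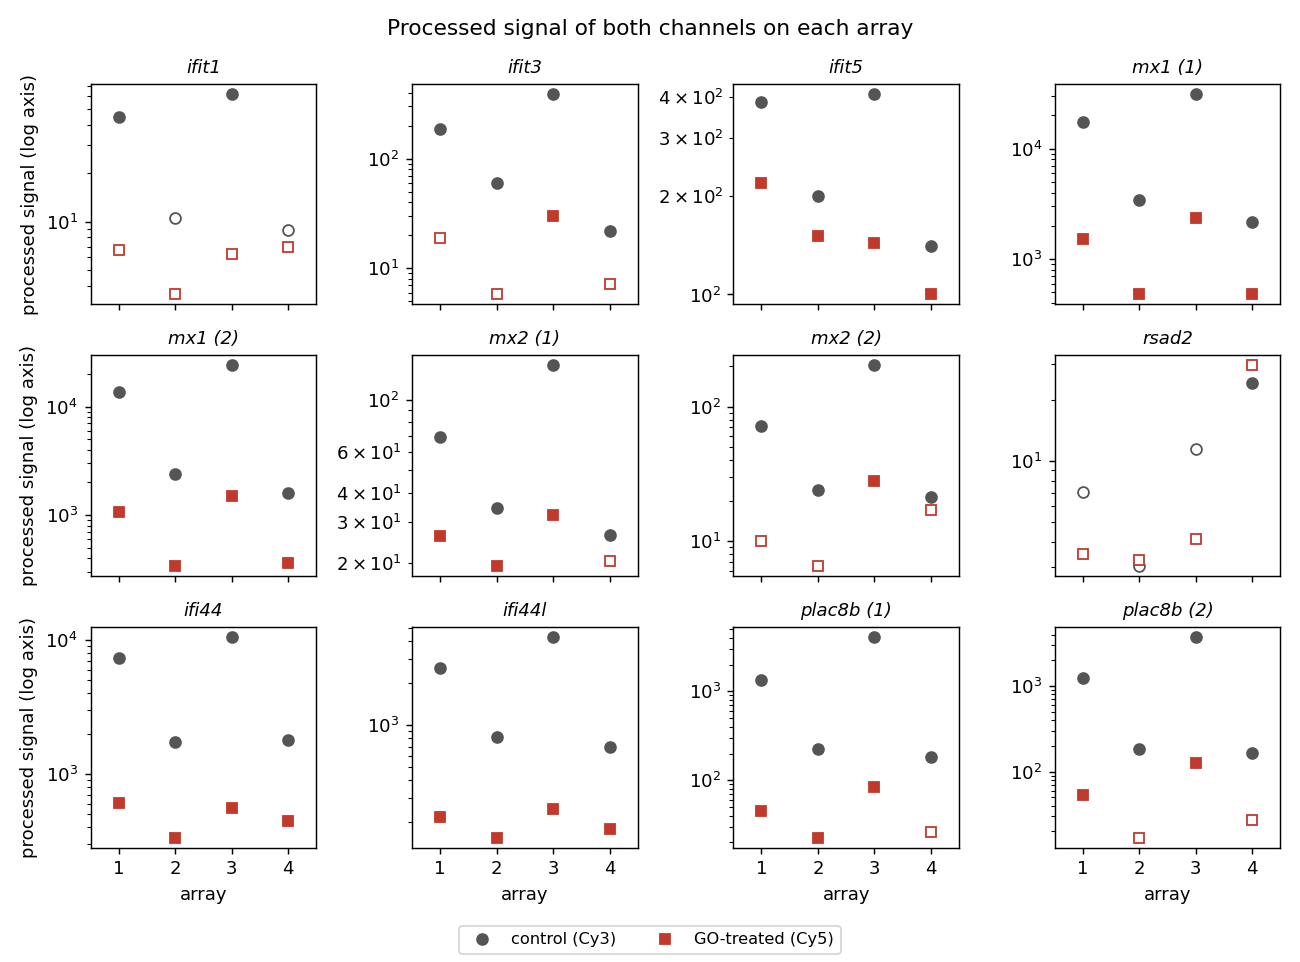
Processed signal of control cells (grey circles, Cy3) and GO-treated cells (red squares, Cy5) on each of the 4 arrays, on log axes that differ between the 12 panels, 1 probe per panel. Filled symbols were well above background. Control signals of most probes were highest on array 3 and lowest on array 4, and for all but *rsad2* the GO signals spanned a narrower range.

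Of the 12 probes, 10 probes of 7 genes met the filter, which asked that the spots of a channel, GO or control, be well above background without exception. *Ifit1* and *rsad2* did not. All 10 met it by the control channel, and 5 of them in the GO channel too, so the other 5 passed through the group in which they were high. In the limma fit over all probes, 10 of these 10 were lower in GO-treated cells, with adjusted p no higher than 0.05 and a change of 1.3-fold or more. Over all probes tested, 8.94% were called by the same rule, 5.61% lower and 3.33% higher. As the genes were chosen on this contrast, nothing is read from that count. With each channel scaled to its 75th percentile, every GO level was below every control level for 6 of the 10 probes, against 7.11% of all probes tested. The median log2 ratio of the 7 genes was -3.01, beside 0.002 for all 9503 genes tested. The calls depended on how the spread was estimated: a plain one-sample test called 0 of the 10 probes (9 at an unadjusted p under 0.05), and limma without the pairing of the channels called 3.

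The 4 arrays did not show the same size of fall. Over the 10 tested probes the median log2 ratio was -3.54, -2.61, -3.87 and -1.98 on arrays 1 to 4. The fall was deepest on array 3 for all 10, and the order of arrays 3, 1, 2 and 4, from the deepest fall to the least, held for 8 of the 10. *Ifit3* was the 1 probe with a deeper fall on array 2 than on array 1, and *ifit5* the 1 probe with its smallest fall on array 2.

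The level of the control cells varied between arrays in the same order. This was read from the control channel alone, as its log2 signal minus the 75th percentile of that channel on the array. The SD of this level over the 4 arrays ranged from 0.655 for *ifit5* to 2.11 for *plac8b* among the 10 tested probes, with a median of 1.60. Over all probes tested the median SD was 0.192 and the 99th percentile 0.764. All tested probes of the set but that of *ifit5* lay above this percentile. By the scaled level, control cells of the highest and the lowest array differed 2.63-fold for *ifit5*, 12.9-fold for the first *mx1* probe and 20.4-fold for the second *plac8b* probe.

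The order of the arrays by control level was 3, 1, 2 and 4 for 9 of the 10 probes, and *ifi44* had arrays 4 and 2 exchanged. Of all probes tested, 2.07% had the former order, and 26.3% had their highest control level on array 3. The 10 probes include 3 pairs of 1 gene each, so they are not 10 independent observations of that order. The genes may also share an inducing signal, which was not tested. The log2 ratio contains the control signal, so a larger fall on an array with a higher control level is partly the same measurement.

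**Figure D3:**
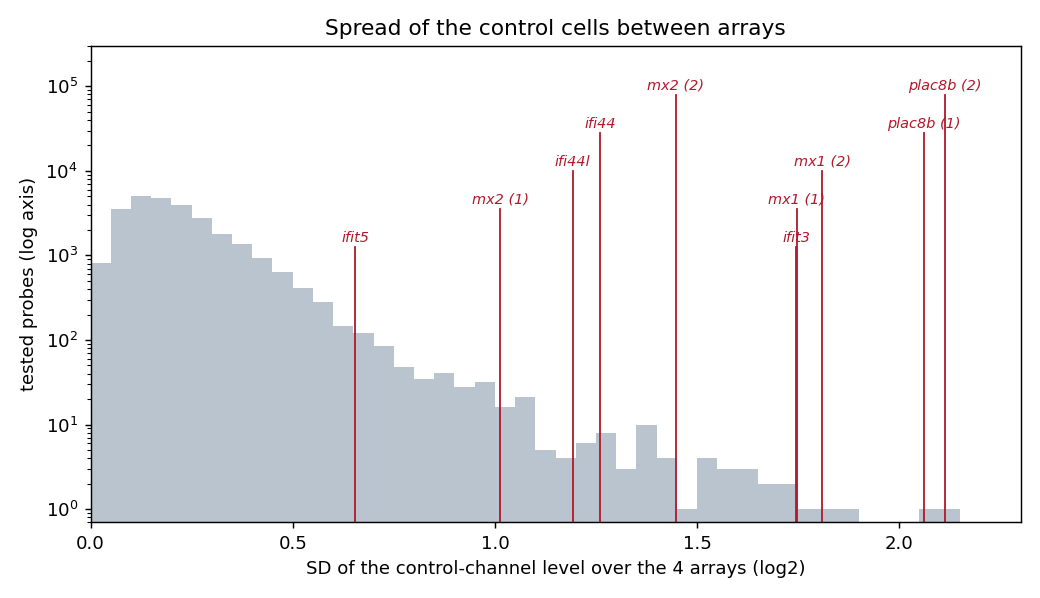
Number of tested probes (vertical log axis) by the SD of their scaled control-channel log2 level over the 4 arrays (horizontal axis, bins of 0.05). Red lines mark the 10 tested probes of the antiviral effectors, which reach from 0.655 to 2.11, while the median of all tested probes is 0.192.

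GO-treated cells differed less between arrays. The SD of the scaled GO level had a median of 0.847 over the 10 probes, beside 0.167 over all probes tested. The fold between the highest and the lowest array was smaller in the GO channel than in the control channel for 10 of 10, and ranged from 1.5-fold for *ifi44l* to 6.87-fold for the second *plac8b* probe. In the GO channel 5 of these probes missed that mark on at least 1 array, which limits how low their GO level can read. For *mx1*, which was bright in both channels, the span was 12.9-fold in control cells and 4.53-fold in GO-treated cells. For *ifi44* it was 5.63-fold in control cells and 1.60-fold in GO-treated cells, and for *ifi44l* 5.57-fold and 1.5-fold.

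Ranked by the spread of the control level, 4 of the effector genes stood among the 20 highest of 9503 genes: *plac8b* ranked 1, *mx1* 4, *ifit3* 5 and *ifi44* 20. Of the other interferon pathway genes listed below, 6 were among those 20, namely *herc6*, *samd9l*, *xaf1*, *ifih1*, *usp18* and *isg15*. *Ifi44l* ranked 25, *mx2* 45 and *ifit5* 198.

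The rest of the interferon pathway was read from a list of 102 genes grouped by role, of which 71 had a probe and 57 were tested. Probes named only by a description were not matched to this list. Of the 57, 36 were lower past both thresholds, 0 were higher and 21 did not pass, beside 5.38% of all genes lower and 3.30% higher. The list was written with earlier results of these data known, so its counts are given as a description. Some of the 57, among them *ifih1* and *cxcl10*, met the filter by the control channel alone, in which they were high. Where both channels had to be well above background, 47 genes of the list were tested and 31 were lower. No gene of the list was higher at an unadjusted p under 0.05, either in limma or in the plain one-sample test. The median log2 ratio of the list was -0.86. The plain one-sample test called 0 of the 57 lower after adjustment, with 30 at an unadjusted p under 0.05. Without array 1, limma called 22.

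The ligands *ifna1*, *ifnb1*, *ifng* and *ifnk*, interferons of types I and II, did not meet the filter. *Ifna1* and *ifng* were well above background on 1 of 4 arrays in each channel, and *ifnb1* and *ifnk* on none. Most of their ratios were listed at 0, so no mean is given. Among the receptors and kinases, 5 were tested and 0 were called, and 0 of the 5 moved by more than 0.25 on the log2 scale. The largest value there was that of *jak2*, a kinase of the interferon gamma receptor, at -0.25 (limma adjusted p = 0.104). *Ifnar1* and *ifnar2*, the chains of the type I receptor, had 0.07 ± 0.13 and 0.04 ± 0.08 (SD, n = 4).

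Of 6 transcription factors tested, 3 fell. *Irf7*, the factor that amplifies interferon production, had the lowest ratio, -2.32 ± 0.43, and *irf9* had -1.24. *Stat2* had -0.07 and did not pass. Among 3 feedback inhibitors, *usp18*, which removes ISG15 from proteins and blocks the type I receptor, fell by 2.87 on the log2 scale, and the other two did not pass. Its ratios of -3.38, -2.25, -3.88 and -1.97 had the same order of arrays as those of *mx1*.

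Of 13 sensors of viral RNA and DNA, 7 fell, among them *ifih1*, the sensor of long double-stranded RNA, at -3.25 ± 1.16 (SD, n = 4). Its GO signal was well above background on 1 of 4 arrays, so the size of that fall is uncertain. Of the 5 genes of the system that attaches ISG15 to proteins, 4 fell, and *herc6*, a ligase, had the lowest ratio at -2.56 ± 1.34. The other induced effectors had 21 of 25 lower. *Cxcl10*, a chemokine, had -2.67, with a GO signal that was likewise well above background on 1 of 4 arrays. In the called genes of the list, the SD of the scaled control level had a median of 0.695, and in those not called a median of 0.303. Array 3 had the highest control level in 33 of the 36 called genes, beside 26.3% of all probes tested. These genes were called on a ratio that contains the control signal, so this count is partly the same measurement.

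**Figure D4:**
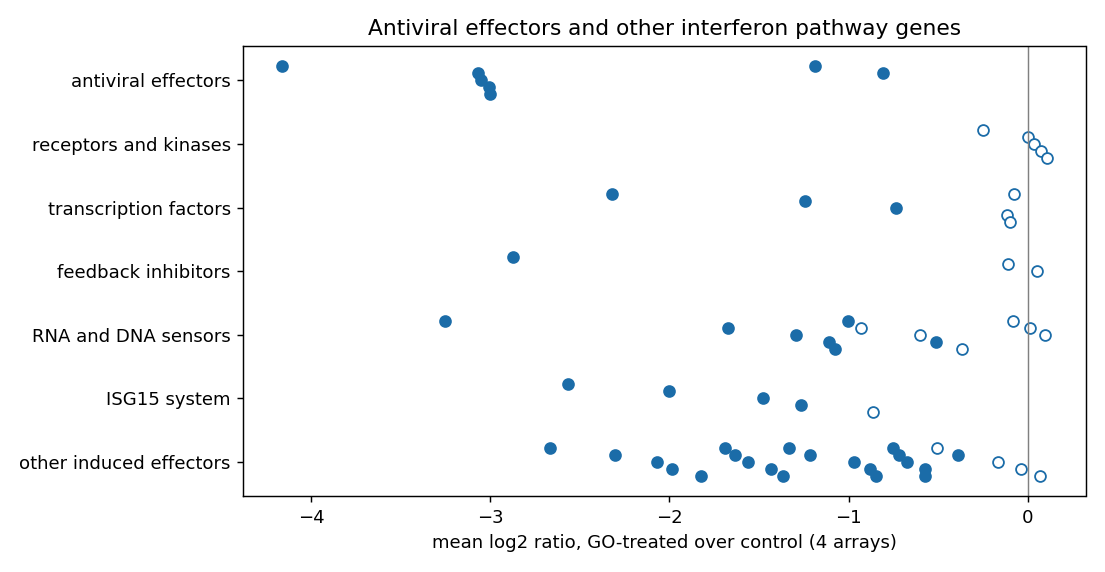
Mean log2 ratio over 4 arrays, GO-treated cells over control (horizontal axis), for the 7 tested antiviral effector genes and the 57 tested genes of the pathway list by role, 1 circle per gene at its brightest probe. Filled circles were past both thresholds. Receptors and kinases lie close to 0, and all filled circles lie below 0.

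Outside the set and the list, the 5 genes whose ratios on the 4 arrays lay nearest to the median of the effectors (-3.52, -2.40, -3.73 and -1.95) were *cd74*, *gvinp1*, *trim69*, *parp15* and *dra*. The measure was the root mean square distance over 4 arrays, which was 0.857 for *cd74*, the invariant chain of MHC class II, and 1.25 for *dra*, an MHC class II chain. *Cd74* had ratios of -2.10, -2.33, -2.81 and -1.70, so its lowest ratio was also on array 3 and its highest on array 4, but arrays 1 and 2 stood in the reverse order. *Dra* had -1.76, -2.11, -2.0 and -2.27, and its lowest ratio was on array 4, where the effectors were nearest to 0.

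Markers of the cells that the cultures could hold were read beside these values, as sums of scaled signals. Of 12 muscle markers, 7 had a probe, and all 7 were above background in control cells by the software's mark on every array. Their sum was 187 to 281 in control cells and 124 to 166 in GO-treated cells, and array 2 had the highest control sum. Of the 7, 6 were lower past both thresholds. The sum is weighted to the bright probes of *myh3*, *acta1* and *des*. *Myf5* and *myh3* did not have their highest control signal on array 2, while the other muscle markers with a probe did. Of 16 leukocyte markers, 15 had a probe and 6 were well above background on all control arrays. The markers *cd3e*, *itgam*, *lyz*, *cd79a*, *cd79b*, *cd2* and *cd4* were well above background on no control array. The leukocyte sum was 7.29, 9.31, 7.94 and 8.17 in control cells and 8.57, 9.74, 8.21 and 8.85 in GO-treated cells, and 0 of the markers passed both thresholds. Control array 3, where the antiviral effectors were highest, did not have the highest leukocyte sum. All 5 endothelial markers with a probe were at background. The 5 fibroblast markers with a probe summed to 107, 102, 114 and 97.8 in control cells on arrays 1 to 4. From highest to lowest this is the order 3, 1, 2 and 4, as for the control level of most effector probes. The sum is weighted to the bright probes of *dcn* and *lum*, and the single markers differed. Control signals were highest on array 3 for *dcn* and *pdgfra*, and on array 1 for *lum*. For *thy1* and *pdgfrb* they were highest on array 2 and lowest on array 3. In GO-treated cells the fibroblast sums were 99.1, 108, 118 and 109. Of these markers *pdgfra*, at 0.87, was the 1 that rose past both thresholds. The part of cell makeup in the ratios of the antiviral effectors was not tested.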

How the data were processed

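RNA of GO-treated and control equine satellite cells was compared on 4 two-color Agilent horse arrays. Per the file headers, the authors used Feature Extraction (version 10.10.1.1), and the methods name another version. The deposited intensity of each channel is the processed signal after background subtraction and linear and lowess dye normalization. The deposited log10 ratio is that of the Cy5 over the Cy3 intensity, save for spots listed at 0 where the software used a substitute signal, and the authors' series table held equal log10 values for 180880 of 180880 entries. The deposited flags for signal well above background and for outlier spots come from the same software.

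Ratios were converted to log2, 1417 control spots and outlier spots were left out, and 43603 probes remained. Probes well above background in 1 channel on all 4 arrays (26834) were tested against 0 with limma (version 3.58.1, R version 4.3.3), two-sided, with Benjamini-Hochberg adjustment over all of them. Calls needed adjusted p no higher than 0.05 and a change of 1.3-fold or more, as in the methods, which name no test. Spots of 50 probes were averaged. The brightest probe stood for a gene. For spreads over arrays, each channel's log2 signal was reduced by its 75th percentile. The number of arrays limits the precision.

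The members and gene lists were chosen with earlier results of these data known. Named were all 10 effectors, in each role of the pathway list the tested gene with the largest ratio and the ligands, and the 5 other genes nearest to the effectors. *Stat2*, *irf9*, *ifnar1*, *ifnar2*, the genes with the widest control spread and *pdgfra* were named after their values were seen. For 1 gene of the pathway list no single value is reported here. Gene numbers were named through the RefSeq table of the TB-T2T assembly, used for names only. The channels of an array are paired: their deviations from the group means correlated at 0.60, 0.86, 0.73 and 0.48, against -0.54 to 0.24 between arrays. The scripts were tested on simulated data. Promoters and protein sequences were not used here. Alternatives were normexp (offset 50) with loess, median centring, other filters, a plain test, no pairing, array weights, the series table and leaving out each array.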

Additional observations from a re-analysis of the deposited data

Results flagged for a closer look

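In 36 groups of 4 values (the log2 ratio and the scaled level of each channel for the 12 probes), the highest or lowest array was set against the gap that chance exceeds in about 1 of 20 groups. The GO level of *rsad2* on array 4 passed it. It was -4.53 on the scaled log2 axis, while arrays 1 to 3 had -7.84, -7.75 and -7.53, and the gap was 0.905 of the whole range. In the GO channel this spot was near background on all arrays. With 1 such value in 36 groups, the number was not above what chance gives.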

How the results depend on the processing

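The median log2 ratio of the tested effector genes lay between -3.36 and -2.42 under every alternative run, the latter with normexp and loess. Counts of calls moved more. Over all probes, 2399 were called; the count was 1297 with normexp and loess, 908 without the filter on dim probes, 147 with the plain test, and 1566 to 2430 when 1 array was left out. Of the effector probes, 10 were called lower; 2 of 12 were called without the filter, 5 of 5 where both channels had to be well above background, 0 with the plain test, and 7 to 10 without 1 array. Of the pathway genes, 36 were called lower. The count was 7 without the filter, 0 with the plain test, and 22 to 37 without 1 array, the fewest without array 1. It was 31 of 47 where both channels had to be well above background. The lowest count over all probes came without array 2.

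Without the replicate block, that is with the channels taken as unpaired samples, 740 probes, 3 effector probes and 15 pathway genes were called. Of the share of calls that were higher, 37.3% became 26.9% unpaired and 19.7% with the plain test, and was 37.1% with normexp and 42.5% with median centring. The calls of single genes were lost for *ifit5* and *mx2* without array 1 or array 2, for *mx2* without array 3, and for *mx2* with normexp, where its log2 ratio was -0.42. With normexp *ifit3* had -1.06 and *plac8b* -2.64, and both kept their calls. Without the filter *mx1* alone kept its call. The median of all ratios stayed within 0.013 of 0 on the log2 scale. The median control SD of the effector probes was 1.60, and 1.62 when scaled by the median. The cause of each move was not tested. All 4 arrays lay on 1 slide, so the slide as a block could not be run. Signal near background limits *ifit1*, *rsad2*, *mx2*, *ifit3* and *plac8b*.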

Other observations

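Probes within 60000 bases of the effectors were listed after the values of the effectors had been seen. Beside *ifit3*, 4 probes of 1 unnamed transcript (chr1:38334318-38335075, EquCab1) had mean log2 ratios of -1.91, -1.19, -1.47 and -1.88. Of the 4, 3 met the filter and were called lower. These 3 start at bases 38334956, 38334986 and 38335016, and each overlaps the next, so they are not independent. An unnamed probe 1536 bases from that of *ifit5* had -0.78 ± 0.66 (SD, n = 4; limma adjusted p = 0.0618). It had the control order of arrays 3, 1, 2 and 4, with signals of 791, 479, 1216 and 383, against 354, 355, 436 and 375 in GO-treated cells. The GO signals were thus alike on all arrays, and the control signal of array 4 stood at their level.

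Near *rsad2*, whose own probe was at background, 3 probes of 1 transcript described in the files as cytidine monophosphate kinase 2, the mitochondrial nucleotide kinase gene that neighbors *rsad2*, were well above background in both channels on all arrays. Their mean log2 ratios were -1.08, -0.92 and -0.94 (limma adjusted p = 0.0518, 0.0732 and 0.0592), so none passed. The gene, *cmpk2*, is on the pathway list, where it was counted as without a probe because these probes are named only by a description. The 3 probes lie 1 base apart and are not independent. Each had its highest control signal on array 3 and its lowest on array 4.

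The neighbors of *plac8b* differed from it in value. *Cops4*, a subunit of the COP9 signalosome with probes 1875 and 1814 bases away, had 0.08 ± 0.17 and 0.08 ± 0.22 (SD, n = 4). The relative *plac8a*, named by its gene number, was well above background on array 1 alone, with a log2 ratio of -0.01 there.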
